A study of Mus musculus with 4 samples.

Results

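The DNA replication machinery was followed in mouse 2-cell embryos through 44 listed genes, which were looked up by Ensembl identifier in a table of 30049 genes. The table held 43 of them, and Gins3 was not analysed here. The genes fall into 6 roles, namely origin licensing, the helicase, the polymerases, the clamp with its loader, strand binding with Okazaki fragment joining, and nucleotide supply. Zygotes of a cross between BDF1 mice (labelled BDF1*BDF1 F2, wild type) were taken 18 h after an injection of human chorionic gonadotropin and cultured in KSOM, a medium for early embryos. Control embryos had the medium alone for 24 h, and DMSO embryos had the same medium with 2% dimethyl sulfoxide (DMSO), a common solvent, for the same 24 h. Embryos at the 2-cell stage were collected, 50 for each group, and each group has 2 RNA libraries, called replicates 1 and 2. Whether a library held all 50 embryos or some of them is not stated, nor whether the replicates were separate cultures, so the p-values measure the spread between these libraries, which may be technical.

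Before a cell copies its DNA, the origin recognition complex (ORC) with Cdc6 and Cdt1 loads the MCM2-7 ring onto each origin, and geminin (Gmnn) binds Cdt1 and prevents a further round of loading. Cdc45 and the GINS complex then turn the ring into a running helicase, polymerase alpha with primase starts each strand, and polymerases delta and epsilon extend it on the sliding clamp PCNA, which the RFC complex loads. The early embryo inherits much of this machinery from the egg as RNA and protein, while its own genome is switched on during the 2-cell stage in the mouse.

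Many replication genes are known targets of E2F, the transcription factor family that acts as cells enter S phase, so the promoters were read for letters of the E2F type. RefSeq promoters on GRCm38.p6, running from 250 bases before to 50 bases after a start, were found for 36 of the 44 genes. The letters searched were TTTCCCGC, TTTCGCGC, TTTGCCGC and TTTGGCGC on both strands, with overlapping matches counted apart. They occurred in 15 of the 36 genes (41.7%) and in 704 of all 27025 genes with a promoter (2.60%). The box CCAAT was found in 23 of the 36 (63.9%) and in 41.1% of all genes, and TATAAA in 3 (8.33%) and in 15.7%. These 4 stretches are shown because they carry the shared letters before the RefSeq start and overlap no annotated exon. They lie at chr1:128359720-128359840 on the minus strand (Mcm6), chr8:75109331-75109392 on the plus strand (Mcm5), chr11:98907988-98908045 on the plus strand (Cdc6) and chrX:93632261-93632318 on the minus strand (Pola1). Each is written 5′ to 3′ on the strand of its gene, with the matches in capitals.
Mcm6: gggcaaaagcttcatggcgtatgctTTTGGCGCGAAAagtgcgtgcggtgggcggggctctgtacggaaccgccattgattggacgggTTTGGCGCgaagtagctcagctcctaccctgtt
Mcm5: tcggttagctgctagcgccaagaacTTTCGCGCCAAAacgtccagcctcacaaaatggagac
Cdc6: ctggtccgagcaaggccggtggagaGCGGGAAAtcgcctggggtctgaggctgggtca
Pola1: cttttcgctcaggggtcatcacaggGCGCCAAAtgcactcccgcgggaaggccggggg
Mcm5 and Mcm6 each hold a pair of overlapping matches on opposite strands, and Mcm6 has a further match nearer to its start. Cdc6 and Pola1 hold a single match on the opposite strand, 138 bases before the RefSeq start in both. The Cdc6 stretch lies inside the annotated gene, which runs from 98907801 to 98923940. A match is a description of letters and not a measured binding site.

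Expression was given as TPM, a unit in which the reads of a gene are divided by transcript length and scaled to the library. TPM keeps no depth, so the number of reads behind a value is unknown. Over all its genes the table adds up to 768174 TPM in control 1, 780527 in control 2, 772487 in DMSO 1 and 799166 in DMSO 2. The number of genes listed above 0 in these libraries was 18661, 18369, 18705 and 18952. Comparisons were made on log2(TPM + 1) in genes averaging 1 TPM or more, 12038 in all, among them all 43 replication genes in the table. The test was limma, in which each gene's variance estimate borrows from the other genes, with Benjamini-Hochberg adjustment over all 12038. A gene is said to have risen or fallen where the adjusted p was under 0.05. For lowly expressed genes a fold change on this scale is smaller than the ratio of the TPM values. In libraries of whole embryos, fewer embryos holding an RNA and less of it in each embryo cannot be told apart.

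Marker genes were read in each library to check the labelled stage. Of 13 listed 2-cell markers 12 were in the table, and they summed to 902 and 659 TPM in the control libraries and to 2395 and 1662 TPM in the DMSO libraries. Tcstv3 was the most abundant (297, 209, 716 and 574 TPM in controls 1 and 2 and DMSO 1 and 2), and 3 of the 10 markers tested rose. The 9 oocyte markers summed to 1103, 712, 2848 and 2203 TPM in that order, with Oosp1 the most abundant at 877, 576, 2086 and 1763 TPM, and 2 of the 8 tested rose.
The 6 sperm markers summed to 2.96, 3.38, 13.5 and 8.69 TPM, most of it Prm2 (2.56, 2.86, 11.0 and 6.79 TPM), both markers tested rose and Tnp2 was listed at 0 in all 4 libraries. The other that rose, Tnp1, reached the mean of 1 TPM through the DMSO libraries alone, so its call is not independent of the filter. Among all genes tested 6.42% rose. The 9 cumulus or granulosa cell markers summed to 38.8, 30.6, 10.7 and 18.7 TPM, nearly all of it Amhr2 (36.8, 29.6, 8.29 and 16.5 TPM), which fell (limma adjusted p = 0.0442), though not under median-ratio scaling (0.0543) or quantile normalization (0.0666). Of these 9, 6 were below 1 TPM in all libraries and Inhba was listed at 0. The 6 markers of later embryos summed to 22.8, 17.1, 26.6 and 24.9 TPM, with Nanog the most abundant at 7.73, 7.04, 11.5 and 14.0 TPM. Mitochondrial transcripts took 10.8% and 12.4% of the TPM sum in control embryos and 15.3% and 21.7% in DMSO embryos, and the 20 most abundant genes took 22.1%, 23.6%, 29.4% and 35.1%. The part of these shifts in the results on replication genes was not tested.

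Of the 43 replication genes, 5 fell in DMSO embryos and 0 rose. The genes that fell were Orc4 of the origin recognition complex, Mcm3 and Gins1 of the helicase, and Rrm1 and Tyms, which serve nucleotide supply. These 5 are 11.6% of the 43, and among all genes tested 14.1% fell and 6.42% rose, so the share that fell is near that of all genes. At an unadjusted p under 0.05 in limma there were 10 genes lower and 3 higher in DMSO embryos, 30.2% of the 43 together, against 4835 (40.2%) of all genes tested. The groups did not overlap in 28 of the 43 genes, 22 with both DMSO libraries lower and 6 with both higher. These are 51.2% and 14.0% of the genes, against 38.7% and 31.1% of all genes tested.
These calls depend on the processing. A fit without 1 library leaves 1 library in a group, so calls lost in it cannot show that a single library made them. In such fits the log2 fold changes ran from -2.95 to -1.76 for Tyms, -1.95 to -1.53 for Gins1 and -1.91 to -1.24 for Rrm1. They ran from -1.46 to -1.01 for Mcm3 and -1.09 to -0.94 for Orc4. Under quantile normalization Gins1, Rrm1 and Tyms fell (9.31% of all genes), without the variance trend all but Orc4 (11.6% of all genes), and without a filter on low values none (0%), while in each of these cases the log2 fold changes of the 5 genes stayed below 0. Among genes averaging at least 5 TPM, which include 36 of the replication genes, Gins4 and Mcm10 fell as well, making 7 (22.5% of all such genes fell).
The log2 fold changes of the 43 genes ran from -2.36 to 0.97, and 27 of them (62.8%) were below 0, against 53.2% of all genes. Their median was -0.41, and the median of all genes was -0.09, a gap of -0.32. The gap was -0.09 among genes averaging at least 5 TPM, -0.18 under quantile normalization and -0.19 without control 1. Summed over the 43 genes, the machinery took 3462 and 3422 TPM in control embryos and 2803 and 2978 TPM in DMSO embryos, or 0.451%, 0.438%, 0.363% and 0.373% of the TPM sum. Without Gmnn, the most abundant of them, the sums were 2270 and 2146 TPM in control embryos and 1947 and 2012 TPM in DMSO embryos.

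**Figure D1:**
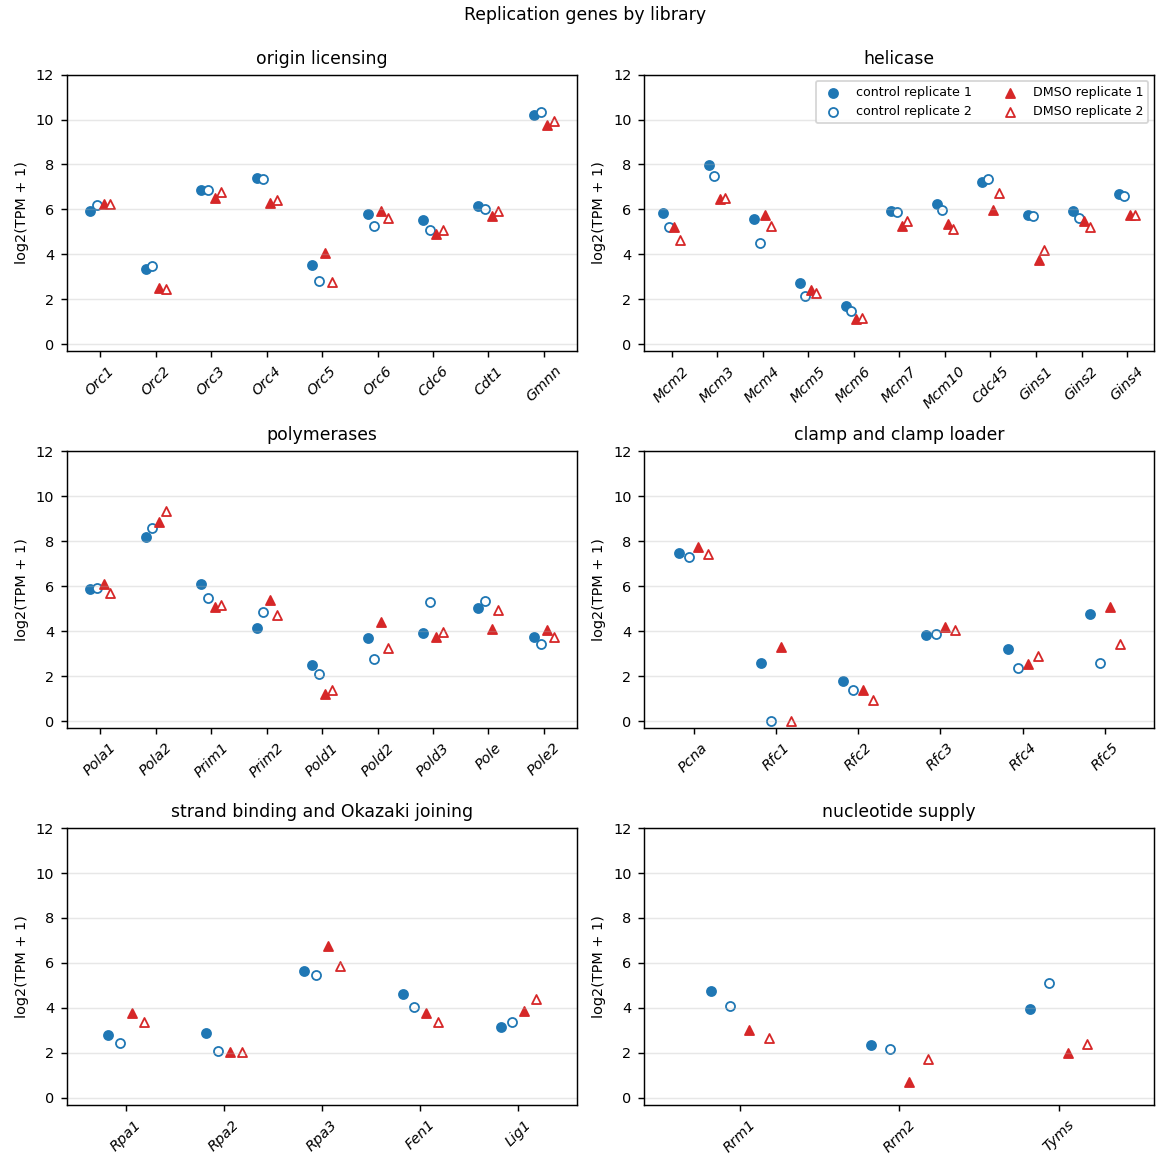
Expression of the 43 replication genes in each library, as log2(TPM + 1), grouped by role, with a point for every library and colours for control and DMSO embryos. Gmnn stands highest in all 4 libraries, and the points of the groups are clearly apart for Gins1, Rrm1 and Tyms.

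**Figure D2:**
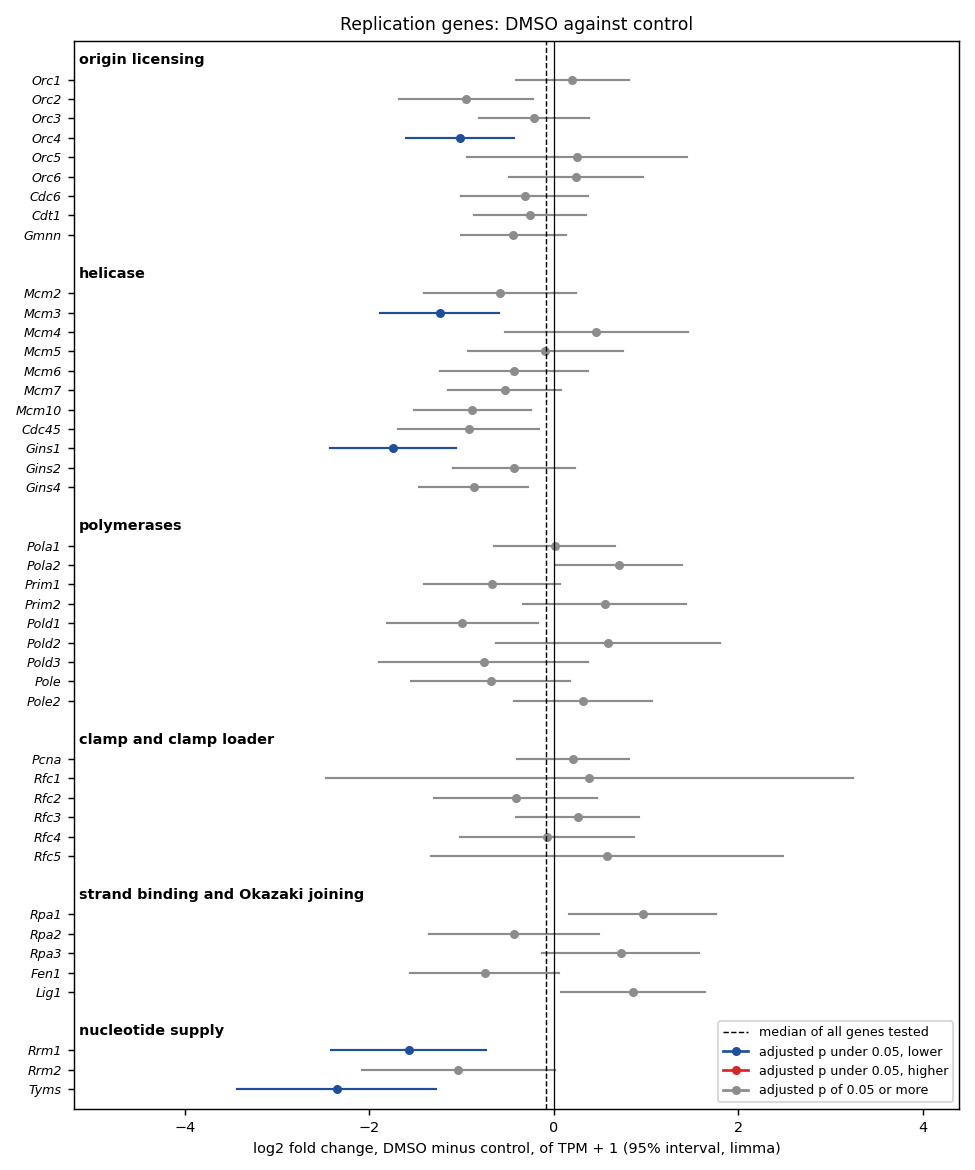
Log2 fold change of each replication gene, DMSO against control on log2(TPM + 1), with its 95% confidence interval from limma, grouped by role. The 5 genes with an adjusted p under 0.05 (Orc4, Mcm3, Gins1, Rrm1 and Tyms) all lie below 0.

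**Figure D3:**
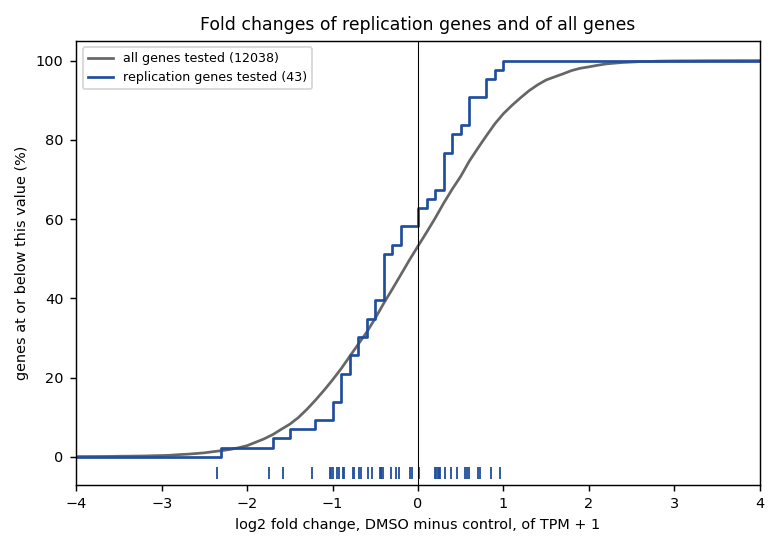
Cumulative share of genes (percent) at or below a given log2 fold change, for the 43 replication genes and for all 12038 genes tested. The curve of the replication genes crosses its middle at -0.41 and that of all genes at -0.09, a gap that was -0.09 among genes averaging at least 5 TPM, and the replication genes end at 0.97.

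Levels differed widely between the genes. Per length, as TPM, 7 genes had a control mean above 100, in falling order Gmnn, Pola2, Mcm3, Pcna, Orc4, Cdc45 and Orc3, while 13 had a control mean below 10. The lowest in the control mean were Rfc2, Mcm6, Rfc1 and Rrm2.

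Among the 9 origin licensing genes, 1 fell, 6 had a log2 fold change below 0 and their median was -0.26, against 14.1% fallen, 53.2% below 0 and a median of -0.09 over all genes. Orc4, a subunit of the ATP-binding core of ORC, lies on chromosome 2 (48902824 to 48950277, minus strand, GRCm38). It had 167 and 163 TPM in control replicates 1 and 2 and 77.0 and 85.6 TPM in DMSO replicates 1 and 2. The groups were apart, with the control mean 2.03 times the DMSO mean. The log2 fold change was -1.02 (SE 0.24, limma adjusted p = 0.0355). Orc2, another core subunit, had 9.31 and 10.3 TPM in controls and 4.71 and 4.45 TPM in DMSO embryos. Its groups were apart as well, but the change of -0.95 (SE 0.30) had a limma adjusted p of 0.0672. Of its 31-base words 27.9% also occur in transcripts of other genes, mainly Nif3l1. Nif3l1 was itself listed at 111 and 93.8 TPM in controls and 80.0 and 76.4 TPM in DMSO embryos. The other ORC subunits had changes of -0.22 (Orc3), 0.20 (Orc1), 0.24 (Orc6) and 0.25 (Orc5), none past the threshold.
Gmnn was the most abundant replication RNA, at 1192 and 1276 TPM in control embryos and 856 and 966 TPM in DMSO embryos. Both DMSO libraries were below both controls, and the change of -0.44 (95% confidence interval -1.01 to 0.13, limma adjusted p = 0.209) did not pass. Its partner Cdt1, the loading factor that geminin binds, had 69.7 and 64.7 TPM in controls and 52.0 and 60.4 TPM in DMSO embryos, a change of -0.26 (-0.87 to 0.35). The ratio of Gmnn to Cdt1 TPM within a library was 17.1 and 19.7 in controls and 16.5 and 16.0 in DMSO embryos. On the log2 scale the ratio differed by -0.18, with an exact two-sided permutation p of 0.333, the smallest that 2 libraries against 2 can give. Cdc6, the ATPase that brings Cdt1 and MCM to ORC, changed by -0.32, with both DMSO libraries below both controls and no call.

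Among the 11 helicase genes tested, 2 fell, 10 had a change below 0, and in 8 both DMSO libraries were lower than both controls. Among all genes 14.1% fell, 53.2% had a change below 0 and 38.7% had both DMSO libraries lower. Their median change was -0.58 on log2(TPM + 1), and their sum was 859 and 719 TPM in control embryos and 432 and 447 TPM in DMSO embryos. Gins1, a subunit of the 4-membered GINS complex, lies on chromosome 2 (150905400 to 150931280, plus strand). It had 53.4 and 50.7 TPM in controls and 12.7 and 17.3 TPM in DMSO embryos. The control mean was thus 3.47 times the DMSO mean, and the log2 fold change was -1.74 (SE 0.29, limma adjusted p = 0.0209). The other GINS members are given to complete the complex and were chosen after their values were seen. Gins4 had 102 and 94.7 TPM in controls and 53.7 and 53.0 TPM in DMSO embryos (change -0.87, SE 0.25, limma adjusted p = 0.0512), and Gins2 had 60.2, 48.1, 43.3 and 36.0 TPM (change -0.44). The ratio of Gins1 to Gins2 TPM, which does not depend on the scaling of a library, was 0.888 and 1.05 in controls and 0.293 and 0.482 in DMSO embryos. The groups were apart, with an exact permutation p of 0.333 as the smallest possible. Of the Gins2 words 66.2% are shared with other genes, mainly Gse1, so the reads of Gins2 are less certain. Gse1 was itself listed at 4.38 and 3.93 TPM in controls and 6.60 and 6.78 TPM in DMSO embryos.
Mcm3, a subunit of the ring, lies on chromosome 1 (20802968 to 20820312, minus strand). It had 249 and 181 TPM in control embryos and 88.2 and 91.1 TPM in DMSO embryos, with the control mean 2.40 times the DMSO mean. It fell by 1.24 on the log2 scale (SE 0.27, limma adjusted p = 0.0300). The ring is built from 1 copy of each of its 6 subunits, and at the RNA level the subunits stood far apart. Mcm3 was the highest and Mcm6 the lowest in every library, with a ratio of 109 and 100.4 in controls and 72.6 and 71.1 in DMSO embryos. The other ring subunits had changes of -0.58 (Mcm2), -0.53 (Mcm7), -0.44 (Mcm6), -0.09 (Mcm5) and 0.46 (Mcm4), none past the threshold. Cdc45, the helicase activator, and Mcm10, which acts as the helicase starts, had changes of -0.92 and -0.88 with groups apart and limma adjusted p of 0.0812 and 0.0587. Of the 2 genes that fell, Mcm3 has E2F-type letters, which lie at or after its start, and Gins1 had no promoter in the table.

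None of the 9 polymerase genes passed the test in limma, and at an unadjusted p under 0.05 there was 1 lower and 1 higher. Their changes were split, 4 below 0 and 5 above, with a median of 0.01 and overlapping groups in 5. Over all genes 20.5% passed in either direction, 53.2% were below 0 and 40.2% had an unadjusted p under 0.05. The groups did not overlap in 38.7% (lower) and 31.1% (higher) of all genes. The sum was 512 and 616 TPM in control embryos and 675 and 829 TPM in DMSO embryos, and most of it was Pola2. Pold1, the catalytic subunit of polymerase delta, had 4.56 and 3.29 TPM in controls and 1.32 and 1.60 TPM in DMSO embryos. The groups were apart, with a change of -0.99 (SE 0.34, limma adjusted p = 0.0804). Pold3, an accessory subunit of the same enzyme, had 14.0 and 38.1 TPM in controls and 12.3 and 14.4 TPM in DMSO embryos, so the groups overlapped and 1 control library set the mean (change -0.76). Pola2, the accessory B subunit of polymerase alpha, was chosen after its values were seen because it is the second most abundant replication gene. It had 294 and 389.8 TPM in controls and 468 and 652 TPM in DMSO embryos, with both DMSO libraries higher and a change of 0.70 (0.01 to 1.40, limma adjusted p = 0.120). Its catalytic partner Pola1 changed by 0.01 (-0.64 to 0.66), and the ratio of Pola2 to Pola1 TPM was 5.13 and 6.64 in controls and 6.93 and 12.9 in DMSO embryos. Primase subunits Prim1 and Prim2 had changes of -0.67 and 0.55, Pold2 0.59, Pole -0.69 and Pole2 0.31, none past the threshold.

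None of the 6 genes of the clamp and its loader passed in limma, with 0 also at an unadjusted p under 0.05, and the groups overlapped in 5 of them. Among all genes 20.5% passed in either direction and 40.2% had an unadjusted p under 0.05. The groups were apart in 38.7% (lower) and 31.1% (higher) of all genes. Pcna, the sliding clamp, had 177 and 154 TPM in control embryos and 210.1 and 174 TPM in DMSO embryos. The second DMSO library lay between the controls, and the change of 0.21 (-0.40 to 0.81, limma adjusted p = 0.558) leaves room for either direction. Of the Pcna words 23.3% are shared with other genes, mainly the pseudogene Pcna-ps2, which was itself listed at 0.397, 0.134, 1.31 and 0.426 TPM.
In some loader subunits, among them Rfc1, Rfc4 and Rfc5, the replicates differed more than the group means. Rfc5 had 25.9 and 5.06 TPM in controls and 32.7 and 9.77 TPM in DMSO embryos, higher in replicate 1 of each group, and its change of 0.58 had a confidence interval from -1.33 to 2.48. Rfc1, the large subunit, was named after its values were seen, with 4.93 and 1.41e-07 TPM in controls and 8.90 and 0.0195 TPM in DMSO embryos. Replicate 2 of each group was close to 0 for this gene, which every dividing cell uses. Rfc2 had 2.42, 1.59, 1.61 and 0.907 TPM (change -0.41), and Rfc3 and Rfc4 changed by 0.26 and -0.07.

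The 5 genes of strand binding and Okazaki fragment joining had groups apart in every case, 2 lower and 3 higher in DMSO embryos, and none passed the test, with 2 higher and 0 lower at an unadjusted p under 0.05 in limma. Among all genes 38.7% had both DMSO libraries lower and 31.1% both higher, so groups apart are common in these data. Of all genes tested 20.5% passed in either direction, and 40.2% had an unadjusted p under 0.05. Rpa1, the large subunit of the single-strand binding protein RPA, had 6.03 and 4.42 TPM in controls and 12.8 and 9.52 TPM in DMSO embryos. Its change of 0.97 (SE 0.33, limma adjusted p = 0.0804) was the highest of the 43 genes. Lig1, the ligase that seals Okazaki fragments, had 8.01 and 9.51 TPM in controls and 13.6 and 20.3 TPM in DMSO embryos. Both DMSO libraries were higher, with a change of 0.86 (SE 0.33, limma adjusted p = 0.101). Rpa3 and Rpa2, the small RPA subunits, had changes of 0.73 and -0.43 that did not pass. Rpa2 was named after its values were seen. It had 6.36 and 3.20 TPM in controls and 3.09 and 3.17 TPM in DMSO embryos, so its difference comes from control 1. Without 1 library its change ran from -0.83 to -0.02. The flap nuclease Fen1 changed by -0.75, and 79.6% of its words are shared with other genes, mainly Gm10143.

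The 3 genes of nucleotide supply had both DMSO libraries below both controls, and 2 of them fell, against 38.7% and 14.1% of all genes. Their sum was 44.4 and 53.3 TPM in control embryos and 10.7 and 11.9 TPM in DMSO embryos. Tyms, thymidylate synthase, which makes the thymidine nucleotide of DNA, lies on chromosome 5 (30058202 to 30073617, minus strand) and had the most negative change of the 43 genes. It had 14.3 and 33.9 TPM in controls and 2.94 and 4.19 TPM in DMSO embryos. The controls differed from each other, yet both lay well above the DMSO libraries, with the control mean 6.77 times the DMSO mean. The change was -2.36 (95% confidence interval -3.44 to -1.28, SE 0.45, limma adjusted p = 0.0242), and 11.4% of its words are shared with other genes, 5.23% with the pseudogene Tyms-ps. Rrm1, the large subunit of ribonucleotide reductase, which turns ribonucleotides into the deoxy form, lies on chromosome 7 (102441695 to 102469771, plus strand). It had 26.0 and 16.0 TPM in controls and 7.09 and 5.38 TPM in DMSO embryos, and it fell by 1.58 on the log2 scale (SE 0.35, limma adjusted p = 0.0315). Rrm2, the small subunit, is given to complete the enzyme and was chosen after its values were seen. It had 4.08 and 3.48 TPM in controls and 0.625 and 2.34 TPM in DMSO embryos. Its change of -1.03 (SE 0.44) had a limma adjusted p of 0.127.

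The change of a gene was only weakly related to the features that could be read for it. Over the 43 genes, which come from the same 4 libraries, Spearman's rho with the log2 fold change was -0.13 for transcript length, -0.04 for GC content, -0.01 for the share of words found in other genes and -0.19 for the log2 control level, given as descriptions. The 14 tested genes with E2F-type letters had a median change of -0.24 with 1 fallen, and the 21 with a promoter but without the letters had a median of -0.43 with 3 fallen. The remaining 8, without a promoter in the table, had a median of -0.44 with 1 fallen. Among all genes 14.1% fell, and nothing about the letters is read from these counts. Leaving out the 5 genes with at least 20% of shared words (Orc2, Mcm7, Gins2, Pcna and Fen1) gave a median of -0.29 over the other 38, which hold all 5 genes that fell.

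A further 56 genes that work beside this machinery were read in the same fit, and 52 were tested. Of these 8 fell (15.4%) and 2 rose (3.85%), against 14.1% and 6.42% of all genes, and their median change was -0.15. With a pseudocount of 0.1 the number that fell was 5 (12% of all genes), without the variance trend 4 (11.6%) and under quantile normalization 2 (9.31%). Each fit without 1 library leaves 1 library in a group, and no call among these genes held in all such fits. The called genes kept their signs in them, with changes from -2.39 to -2.16 for Dtymk and 0.97 to 1.33 for E2f2. The genes that fell were Dtymk, Rnaseh2b, Dna2, Skp2, Top2a, Atad5, Top1 and Tipin, and those that rose were Rnaseh2c and E2f2. Dtymk, thymidylate kinase, which acts on the product of Tyms, had 62.2 and 54.8 TPM in controls and 10.3 and 12.3 TPM in DMSO embryos. The groups were far apart, with a change of -2.28 (SE 0.28, limma adjusted p = 0.0181).
The 3 subunits of RNase H2, which removes ribonucleotides from DNA, differed in direction. Rnaseh2b had 3.96 and 2.85 TPM in controls and 0.0589 and 0.0392 TPM in DMSO embryos, with a change of -2.06 (limma adjusted p = 0.0209). It reached the mean of 1 TPM through the controls alone, so its call is not independent of the filter. Rnaseh2c had 2.82 and 2.11 TPM in controls and 6.04 and 10.4 TPM in DMSO embryos, with a change of 1.38 (limma adjusted p = 0.0462). Rnaseh2a, the catalytic subunit, changed by 0.05 with no call. Of the Rnaseh2c words 22.4% are shared, mainly with Kat5.
Of the 7 nuclease and topoisomerase genes tested 4 fell, Rnaseh2b among them, against 14.1% of all genes. Of the 4, Dna2, Rnaseh2b and Top1 fell with a pseudocount of 0.1, Dna2 and Rnaseh2b without the variance trend, and Rnaseh2b alone under quantile normalization. Dna2, a nuclease and helicase that trims long flaps of Okazaki fragments, had 69.9 and 64.3 TPM in controls and 23.3 and 33.2 TPM in DMSO embryos, with a change of -1.24 (limma adjusted p = 0.0337). Top1 and Top2a, which relieve twisting ahead of the fork and untangle the copies, fell by 1.01 and 1.09 on the log2 scale. The other genes that fell were Skp2 (-1.11), part of a ubiquitin ligase that targets licensing factors, Atad5 (-1.02), which unloads the clamp, and Tipin (-0.86), a fork protection factor. Atad5 and Tipin did not pass with a pseudocount of 0.1, without the variance trend or under quantile normalization, nor Tipin under median-ratio scaling. Skp2 did not pass under quantile normalization (limma adjusted p = 0.0547). Of 10 tested E2F and pocket protein genes 1 rose, E2f2, an activating E2F. It had 7.04 and 5.24 TPM in controls and 15.1 and 14.3 TPM in DMSO embryos (change 1.15, limma adjusted p = 0.0448). The highest change among the 10 was 2.25, in a gene that was not called. Both DMSO libraries were higher in 5 of the 10 and lower in 2, against 31.1% and 38.7% of all genes. Among all genes 6.42% rose. E2f3 and Tfdp1 were listed at 0 in all libraries, and Cdc7 and E2f8 were below the mean of 1 TPM. None of the 6 tested firing factors and none of the 3 MCM relatives passed, with 0 and 1 at an unadjusted p under 0.05 in limma. Among all genes 20.5% passed in either direction and 40.2% had an unadjusted p under 0.05.

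**Figure D4:**
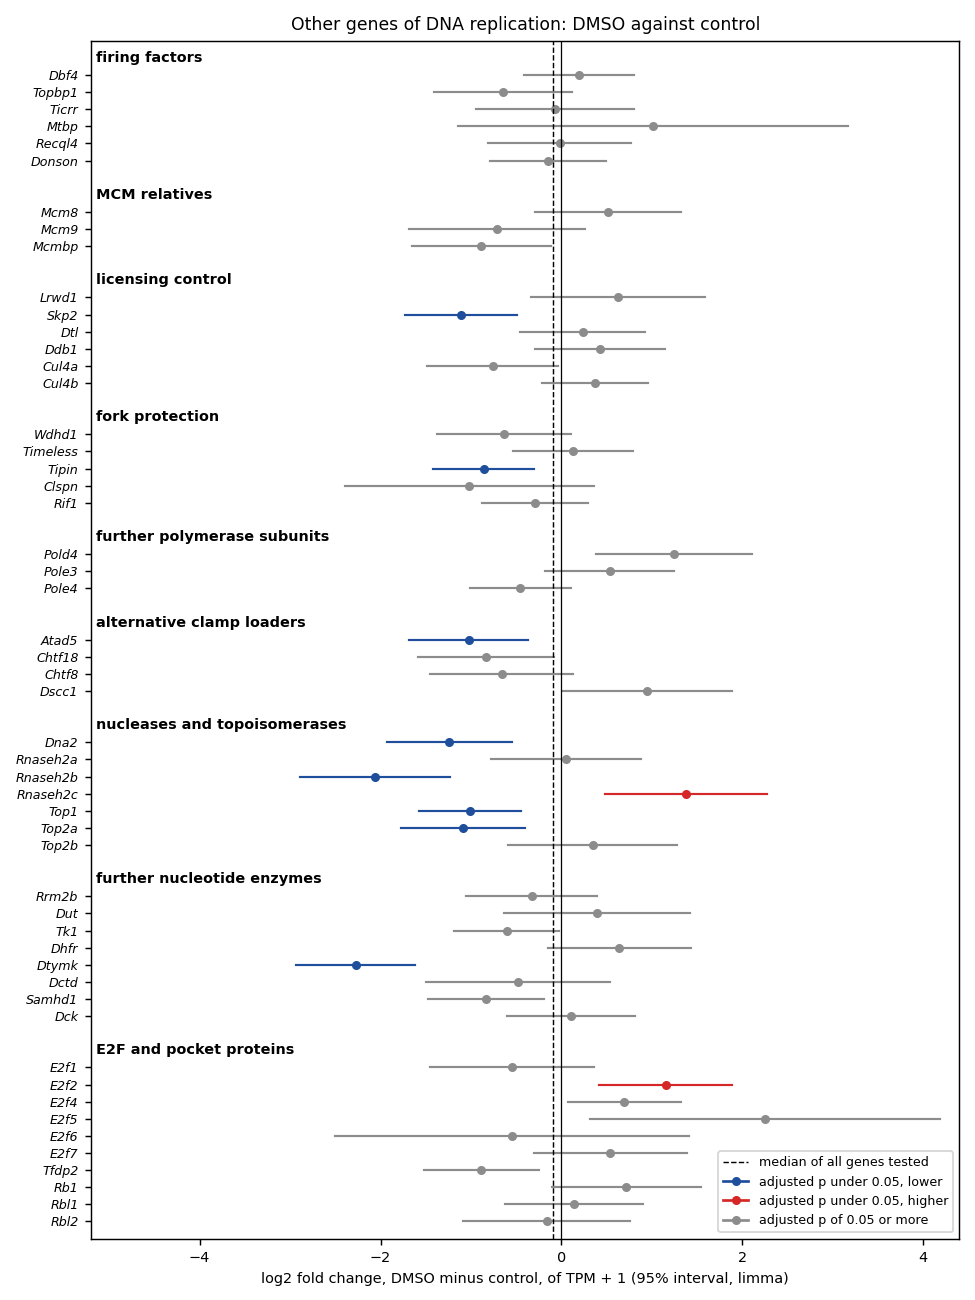
Log2 fold change of the 52 further replication genes tested, DMSO against control on log2(TPM + 1), with 95% confidence intervals from limma, grouped by function. The 8 that fell lie below 0, with Dtymk and Rnaseh2b the farthest, and Rnaseh2c and E2f2 are the 2 that rose.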

How the data were processed

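RNA of 50 embryos for each group was amplified with a low-input kit and sequenced on 2 control and 2 DMSO libraries. The authors quantified reads with kallisto on an Ensembl transcriptome of GRCm38 (mm10), summed transcripts per gene with tximport and deposited TPM values. STAR, SAMtools and bedtools are also named in the submitters' processing notes. The authors tested estimated counts with DESeq2, and the deposited TPM values are not counts, so limma 3.58.1 in R 4.3.3 was used (lmFit, then eBayes with its variance trend, two-sided) on log2(TPM + 1) for genes averaging 1 TPM or more, with Benjamini-Hochberg adjustment at 0.05. The steps were tested on simulated data.

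Libraries were grouped by the sample labels. Gene names and coordinates came from GENCODE M21 on GRCm38, and promoters from RefSeq on GRCm38.p6. Shared reads were judged by how many of the 31-base words of a gene also occur in others. The genes, lists and tests were chosen with earlier results of these data known. Values per library were given for each replication gene called, the 2 of each role with the largest absolute log2 fold change, Gmnn, Cdt1 and Pcna, and, of the further replication genes, at most the 3 lower and the 3 higher called with the largest change. Genes outside this rule are marked in the text. Alternatives were a pseudocount of 0.1, no filter, no variance trend, a 5 TPM filter on the mean, quantile normalization, median-ratio scaling, the replicate number as a block and leaving out each library. Other steps ran in Python 3.11.15 with scipy 1.17.1, numpy 2.4.6 and pandas 2.3.3, and plots were drawn with matplotlib 3.10.9.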

Additional observations from a re-analysis of the deposited data

How the results depend on the processing

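The 2470 genes called over the whole table became 0 without a filter on low values (22257 tested, 5368 at an unadjusted p under 0.05) and 5132 with the replicate number as a block. Without 1 library the count ran from 0 to 1883. It was 0 without control 1, control 2 or DMSO 1 (3745, 2602 and 3078 at an unadjusted p under 0.05), where the lone library is assumed to vary like the other group. The 5 replication genes that fell became 0 without a filter, 3 under quantile normalization (Gins1, Rrm1 and Tyms), 7 with a mean of at least 5 TPM (Gins4 and Mcm10 added) and 0 to 3 without 1 library, the 3 being Cdc45, Gins1 and Tyms without DMSO 2. Orc4 was also lost without the variance trend. Without control 1, control 2 or DMSO 1, 6, 8 and 9 of the 43 genes had an unadjusted p under 0.05 in limma. Of the further genes, the 8 that fell became 5 with a pseudocount of 0.1 and 0 without a filter. They became 4 without the trend, 2 under quantile normalization and 7 with median-ratio scaling (Tipin lost), where 1364 of 11995 genes fell. None of the 8 kept its call in every fit without 1 library, which leaves 1 library in a group. The 2 that rose became 0 without a filter, 0 without any 1 library, and 3, with Pold4 added, without the trend, with median-ratio scaling and under quantile normalization. Pold4 reached the mean of 1 TPM through the DMSO libraries alone, so its call is not independent of the filter. The median change was -0.29 over the 36 replication genes averaging 5 TPM or more, where the median of all genes was -0.19. Over the 43 genes it was -0.18 under quantile normalization, where the median of all genes was 0.01, and -0.53 to -0.21 without 1 library. The share of calls that were higher was 31.3%, and 49.0% under quantile normalization.

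Both groups use replicate numbers 1 and 2, and nothing says that these pair libraries. The deviations of same-numbered libraries correlated at r = 0.354 over 12038 genes, which are not independent, from 2 pairs. With the replicate block 12 replication genes were lower and 3 higher (2981 and 2151 of all genes), and 17 and 5 of the further genes. The replication genes added were Cdc45, Fen1, Gins4, Gmnn, Mcm10, Orc2 and Pold1 among the lower and Lig1, Pola2 and Rpa1 among the higher.

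Signs changed for 11 of 53 genes followed. Under quantile normalization Orc3 was at 0.0794 and Cdt1 at 0.0442. Without 1 library the values ran from -0.40 to 0.89 for Orc5, -0.024 to 0.50 for Orc6, -0.074 to 0.997 for Mcm4, -0.37 to 0.19 for Mcm5, -0.20 to 0.22 for Pola1, -0.00075 to 1.18 for Pold2, -1.26 to 2.02 for Rfc1, -0.50 to 0.35 for Rfc4 and -0.50 to 1.65 for Rfc5. The causes were not tested. Without 1 library the 5 called genes kept their sign, from -2.95 to -1.76 for Tyms, -1.95 to -1.53 for Gins1, -1.91 to -1.24 for Rrm1, -1.46 to -1.01 for Mcm3 and -1.09 to -0.94 for Orc4.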

Other observations

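Several replication genes were higher in replicate 1 than in replicate 2 of both groups, which was the case for 18 of the 43 (41.9%) and for 40.2% of all genes tested. The genes named here were chosen after their values were seen. Rfc5 was 5.12 times and 3.35 times higher in replicate 1 of the control and DMSO groups, Pold2 2.09 and 2.43 times, Orc5 1.73 and 2.69 times, and Mcm4 2.15 and 1.42 times. Pold2, a polymerase delta subunit, had 12.1 and 5.79 TPM in controls and 20.4 and 8.43 TPM in DMSO embryos, and Orc5 had 10.5 and 6.08 TPM in controls and 15.8 and 5.86 TPM in DMSO embryos. For these genes the difference between replicates was larger than that between the group means.

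Within complexes, the ratio of the highest to the lowest subunit in TPM overlapped between groups for ORC (18.0 and 26.9 in controls, 19.2 and 24.2 in DMSO embryos) and was higher in both DMSO libraries for GINS without Gins3 (1.91 and 1.97, 4.23 and 3.06) and for RPA (8.22 and 13.7, 34.6 and 17.8). It was lower in both DMSO libraries for MCM2-7 (109 and 100.4, 72.6 and 71.1) and for the polymerase epsilon pair Pole and Pole2 (2.55 and 4.09, 1.01 and 2.41), and it overlapped for polymerase alpha with primase (17.6 and 14.0, 14.1 and 25.4) and for polymerase delta (3.06 and 11.6, 15.5 and 9.04). These ratios are values with no test.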
